A study of Homo sapiens with 4 samples.

Results

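The transcripts of 9 growth factor receptor genes were followed in SK-N-SH, an established line from a human neuroblastoma that mixes neuroblast-like cells with flat, substrate-adherent ones. The 9 genes were ALK, RET, NTRK2, NTRK3, NGFR, GFRA2, GFRA3, PDGFRA and PDGFRB. They were chosen by symbol, each matched 1 row, and they made up 9 of the 24014 genes in the table of counts. In 2 libraries the wild-type cells had received an empty lentiviral vector (control), and in 2 libraries they had received a lentivirus for AP1AR-DT, a long non-coding RNA (AP1AR-DT_OE). Every group therefore had been exposed to lentivirus, no untransduced cells were included, and the promoter of the vector was not given in the sources used here. The labels give each library a number, 1 or 2, but do not say whether the libraries came from separate cultures or clones, so p-values measure only the spread between these libraries.

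The libraries held between 21988065 and 26184599 counts, with 19833 to 21280 genes above 0. AP1AR-DT (ENSG00000260526, listed as RP11-73K9.2) had 3 and 18 counts in the controls, against 680 and 1065 in AP1AR-DT_OE, a Log2FC of 6.63 (SE = 0.64, DESeq2 adjusted p = 3.64e-21), so each library matched its label. The transcript of AP1AR-DT_OE 2 was named with another version suffix in its genotype label than in its title, and the title was followed. About 4 counts corresponded to 1 read pair, and 12 counts, or 3 read pairs, was taken as the floor below which a gene could not be told from absent. The libraries separated by number, and for the receptors above the floor the ratio within each number is given beside the pooled value. In bulk RNA, fewer cells expressing a receptor and less receptor RNA per cell cannot be told apart.

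ALK and RET are receptor tyrosine kinases, and activating mutations or rearrangements of each are known in neuroblastoma or in other tumours of neural crest origin. RET does not bind its ligands alone: GDNF, NRTN, ARTN and PSPN are held by the membrane-anchored co-receptors of the GFRA family, of which GFRA2 prefers NRTN and GFRA3 prefers ARTN. NTRK2 and NTRK3 encode the kinases TRKB and TRKC, which bind BDNF and NTF3, while NGFR encodes p75, a receptor without kinase activity that binds all neurotrophins. PDGFRA and PDGFRB bind dimers of the platelet-derived growth factors and are known for their expression in cells of mesenchymal character. The kinases signal through adaptors such as SHC1, FRS2 and GRB2 to RAS and MAPK, which in turn induce genes such as FOS, EGR1 and SPRY1.

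Because 6 of the receptors are related kinases, the start of the activation loop is shown to let the paralogs be compared base by base. The sequences are coding strand, 5′ to 3′, from GRCh37 and the GENCODE v44 coding models mapped to it, and capitals mark the codons of the Asp-Phe-Gly triplet that opens the loop in protein kinases.
PDGFRA: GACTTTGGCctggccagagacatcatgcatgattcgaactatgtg
PDGFRB: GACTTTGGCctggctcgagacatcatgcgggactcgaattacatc
RET: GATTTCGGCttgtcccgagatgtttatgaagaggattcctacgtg
ALK: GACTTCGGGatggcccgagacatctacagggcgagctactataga
NTRK2: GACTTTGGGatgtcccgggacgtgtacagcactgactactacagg
NTRK3: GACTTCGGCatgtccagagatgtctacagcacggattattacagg
The stretches lie at chr4:55152074-55152118 on the plus strand for PDGFRA, chr5:149500463-149500507 on the minus strand for PDGFRB, chr10:43615595-43615639 on the plus strand for RET, chr9:87570388-87570432 on the plus strand for NTRK2 and chr15:88472422-88472466 on the minus strand for NTRK3. That of ALK crosses an exon junction within chr2:29430123-29432680 on the minus strand. All are coding exon sequence.

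PDGFRA and PDGFRB shared 36 of the 45 bases shown, and so did NTRK2 and NTRK3. RET shared 31 with NTRK3, and ALK shared 33 with NTRK2. Over the whole coding sequences, the longest run of identical bases was 23 in each of the pairs PDGFRA/PDGFRB and NTRK2/NTRK3, and no pair among the 6 had a longer one, against a read length of 150 bases. The pairs differed in base composition: the coding sequence of PDGFRA was 47.4% GC and that of PDGFRB 58.3%, and NTRK2 was 50.1% and NTRK3 54.6%. RET was at 60.3% and ALK at 58.1%.

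SK-N-SH cells in these libraries carried PDGFRB and RET at the highest levels of the 9, NGFR below them, GFRA2 and PDGFRA lower again, and ALK, GFRA3, NTRK3 and NTRK2 near or under the floor. PDGFRB (ENSG00000113721; chromosome 5, 150113839 to 150155872, GRCh38 as in the table) had 3323 and 2466 counts in the controls, against 3348 and 2657 in AP1AR-DT_OE. PDGFRA (ENSG00000134853; chromosome 4, 54229280 to 54298245) had 136 and 226 counts in the controls, against 100 and 150 in AP1AR-DT_OE. The paralog with more counts was PDGFRB in every library. Per kilobase of merged exons, PDGFRB was 32.7-fold above PDGFRA in control 1, 14.6-fold in control 2, 44.8-fold in AP1AR-DT_OE 1 and 23.7-fold in AP1AR-DT_OE 2. The annotation holds a second gene, ENSG00000282278, which shares exon sequence with PDGFRA on the same strand and has no row here, so the PDGFRA count is uncertain to that extent.

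RET (ENSG00000165731; chromosome 10, 43077064 to 43130351) had 1029 and 1921 counts in the controls, against 910 and 1192 in AP1AR-DT_OE. Its co-receptor GFRA2 (ENSG00000168546; chromosome 8, 21690398 to 21812357) had 115 and 143 counts in the controls, against 84 and 78 in AP1AR-DT_OE, and RET exceeded GFRA2 per kilobase by 5.76-fold to 9.84-fold. GFRA3 (ENSG00000146013; chromosome 5, 138252380 to 138274621) had 17, 12, 15 and 0 counts in the same order, over the floor in 2 libraries. ALK (ENSG00000171094; chromosome 2, 29192774 to 29921586) had 23 and 38 counts in the controls, against 27 and 26 in AP1AR-DT_OE. These were a few read pairs in each library. In the GENCODE v44 models, ALK shares exon sequence with CLIP4 on the opposite strand. The gene bounds listed with the counts do not overlap, with CLIP4 ending at 29189643, before the start of ALK. The use of strand in counting is not given in the sources used here. Whether part of the ALK count belongs to CLIP4, which had 87 to 249 counts, therefore cannot be told.

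Among the neurotrophin receptors, NGFR (ENSG00000064300; chromosome 17, 49495293 to 49515008) was the one with a clear signal, at 436 and 369 counts in the controls, against 339 and 351 in AP1AR-DT_OE. Its antisense partner NGFR-AS1, which shares exon sequence with it, had 0 to 2 counts. NTRK3 (ENSG00000140538; chromosome 15, 87859751 to 88256768) had 16, 21, 6 and 26 counts, and NTRK2 (ENSG00000148053; chromosome 9, 84668551 to 85027054) had 0, 10, 8 and 0 counts, at or under the floor in every library. No fold change is given for NTRK2. At this depth its expression was not detectable, which does not show that it is absent.

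**Figure D1:**
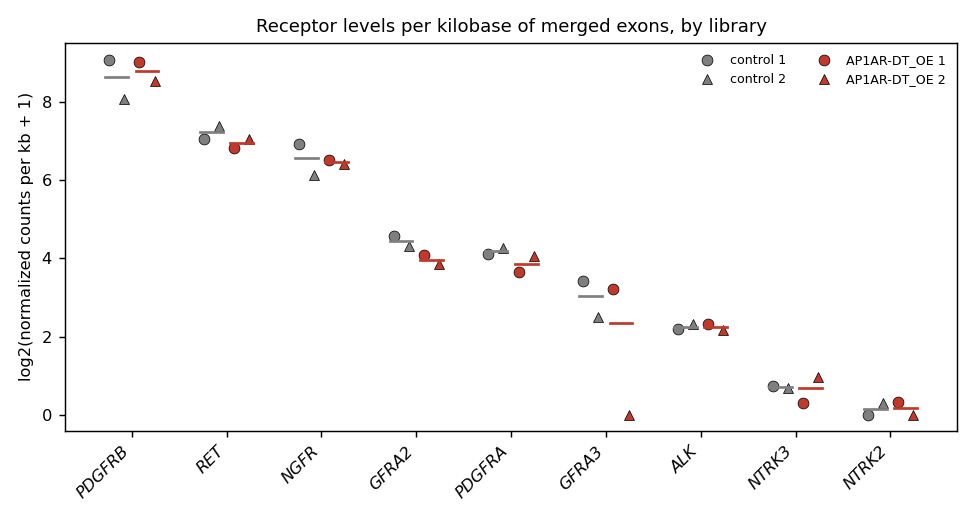
Normalized counts per kilobase of merged exons for the 9 receptors, as log2(value + 1) on the vertical axis, in each of the 4 libraries (circles, number 1; triangles, number 2; grey, control; red, AP1AR-DT_OE); bars are the group means. The receptors differ far more from each other, from 420 for PDGFRB to 0.12 for NTRK2, than the groups differ within any receptor above the floor.

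On the scale of normalized counts per kilobase, which allows genes to be compared, PDGFRB stood at 420 ± 125 (SD, n = 4), above 86.8% of the 23954 genes with an annotated length. RET stood at 135 ± 22.4 (SD, n = 4) and NGFR at 90.6 ± 21.5 (SD, n = 4), above 73.5% and 68.2% of genes. These shares include undetected genes: of all 24014 genes, 6402 were at or under the floor in every library. GFRA2 followed at 17.8 ± 4.01 and PDGFRA at 15.4 ± 2.84 (SD, n = 4), then GFRA3 at 5.67 ± 4.34 and ALK at 3.76 ± 0.27 (SD, n = 4). NTRK3 was at 0.62 and NTRK2 at 0.12. The ranges over the 4 libraries did not overlap between PDGFRB and RET, NGFR and GFRA2, PDGFRA and GFRA3, or ALK and NTRK3. They did overlap between RET and NGFR, GFRA2 and PDGFRA, GFRA3 and ALK, and NTRK3 and NTRK2, so those neighbours did not differ beyond their spread, although RET exceeded NGFR in each of the 4 libraries. Of the summed level of the 9 in a library, PDGFRB took 48.7% to 68.1%, RET 14.7% to 30.2% and NGFR 11.9% to 14.4%.

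None of the 9 receptors was called between AP1AR-DT_OE and control, although GFRA2 and PDGFRA lay below both controls in both AP1AR-DT_OE libraries. In the DESeq2 Wald test, 0 of 9 reached an adjusted p under 0.05, where 0.137% of the 24014 genes did (20 higher and 13 lower), and the adjusted p was 1 for each of the 9. Without adjustment, 0 of 9 had p under 0.05, against 0.816% of all genes. The edgeR quasi-likelihood test called 0 genes in the whole table, with 112 at an unadjusted p under 0.05, and none of the receptors passed in it either. With n = 2 a group the intervals were wide, and the values below bound the differences that these libraries could have shown.

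PDGFRB was at 3785 and 1902 normalized counts in the controls, against 3672 and 2637 in AP1AR-DT_OE, or 2843 ± 1331 against 3155 ± 732 (SD, n = 2). The control libraries differed more from each other than the groups did. Its Log2FC was 0.15 (SE = 0.49, 95% interval −0.82 to 1.12), and the ratio within numbers was −0.04 in number 1 and 0.47 in number 2. Its sign rested on single libraries: without control 2 it was −0.25, and without AP1AR-DT_OE 1 it was −0.11. PDGFRA was at 155 and 174 normalized counts in the controls, against 110 and 149 in AP1AR-DT_OE, with a Log2FC of −0.35 (SE = 0.58, 95% interval −1.49 to 0.79) and ratios of −0.50 and −0.23 within the numbers.

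RET was at 1172 and 1482 normalized counts in the controls, against 998 and 1183 in AP1AR-DT_OE, so that the ranges overlapped by a narrow margin. Its Log2FC was −0.28 (SE = 0.45, 95% interval −1.16 to 0.60), and the within-number ratios were −0.23 and −0.32. The interval thus allows a fall by 1.16 or a rise by 0.60 on the log2 scale. GFRA2 was at 131 and 110 normalized counts in the controls, against 92.1 and 77.4 in AP1AR-DT_OE, a Log2FC of −0.51 (SE = 0.63, 95% interval −1.74 to 0.72), with −0.51 in both numbers. GFRA3 had 19.4 and 9.26 normalized counts against 16.5 and 0, and its Log2FC of −0.80 (SE = 1.77) rested on the library at 0: without AP1AR-DT_OE 2 it was 0.20, and without AP1AR-DT_OE 1 it was −6.29 with an unadjusted p of 0.0402, a fitted value that is no bound.

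NGFR was at 497 and 285 normalized counts in the controls, against 372 and 348 in AP1AR-DT_OE, both inside the range of the controls. Its Log2FC was −0.12 (SE = 0.52, 95% interval −1.13 to 0.90), the ratios within the numbers were −0.42 and 0.29, and it turned to 0.34 without control 1. ALK was at 26.2 and 29.3 normalized counts in the controls, against 29.6 and 25.8 in AP1AR-DT_OE, the smallest difference between group means among the 8 receptors compared, with 27.8 ± 2.20 against 27.7 ± 2.69 (SD, n = 2). Its ratios within the numbers were 0.18 and −0.18, and at this depth its interval still ran from −1.93 to 1.92. NTRK3 was at 18.2 and 16.2 against 6.58 and 25.8, with a Log2FC of −0.08 (SE = 1.28) and within-number ratios of −1.47 and 0.67, and without AP1AR-DT_OE 1 it was 0.58.

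**Figure D2:**
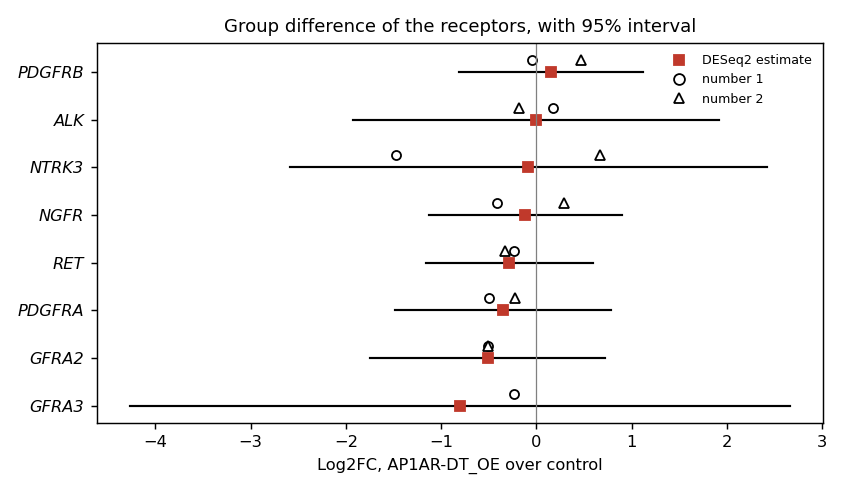
Log2FC of AP1AR-DT_OE over control (horizontal axis) for 8 receptors, NTRK2 being left out since every library was at or under the floor. Red squares are DESeq2 estimates, lines their 95% intervals, and open circles and triangles the log2 ratios within number 1 and number 2 (number 1 alone for GFRA3); every interval includes 0.

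Of the 5 receptors with a mean of at least 50 normalized counts, 2 lay below both controls in both AP1AR-DT_OE libraries, GFRA2 and PDGFRA, where 4.35% of the 13298 genes at that level did. None of the 5 lay above both controls, where 5.11% of genes did. RET, with its control 1 at 1172 and AP1AR-DT_OE 2 at 1183 normalized counts, missed that separation. The median Log2FC of all genes at that level was −0.02, and that of the 5 receptors was −0.28.

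The libraries numbered 1 and 2 also differed in their receptor levels. PDGFRB was lower in number 2, by a log2 ratio of −0.99 in the controls and −0.48 in AP1AR-DT_OE. RET was higher in number 2, by 0.34 and 0.25, and PDGFRA was higher by 0.17 and 0.44. These signs were the same with TMM factors or library totals in place of size factors. The level of PDGFRB relative to RET needs no scaling factor, and it was 4.06 and 4.63 per kilobase in number 1 and 1.61 and 2.80 in number 2. For NGFR the ratios were −0.80 and −0.09, of which the second became 0.11 with library totals, and for GFRA2 they were −0.25 in both groups, of which that of the controls became 0.14 with library totals. Of the 13298 genes with a mean of at least 50, 41.4% were higher and 44.5% lower in number 2 in both groups, so a shared direction was common.

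The difference between numbers changed with the GC content of the transcript over all genes, and the smoothed trend at each receptor's own GC content is given beside it. For PDGFRB (57.5% GC) the trend was −0.65 in the controls and −0.31 in AP1AR-DT_OE, of the same sign as the measured ratios and smaller. For PDGFRA (42.9% GC) it was 0.78 and 0.46, above the measured 0.17 and close to the measured 0.44. For NGFR (62.9% GC) it was −0.77 and −0.34, and for GFRA2 (55.2% GC) −0.55 and −0.29. RET (52.0% GC) departed from its trend, which was −0.34 and −0.21 where 0.34 and 0.25 were measured. The part of base composition in these ratios was not tested, and with 1 library of each number in a group the ratios have no test.

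**Figure D3:**
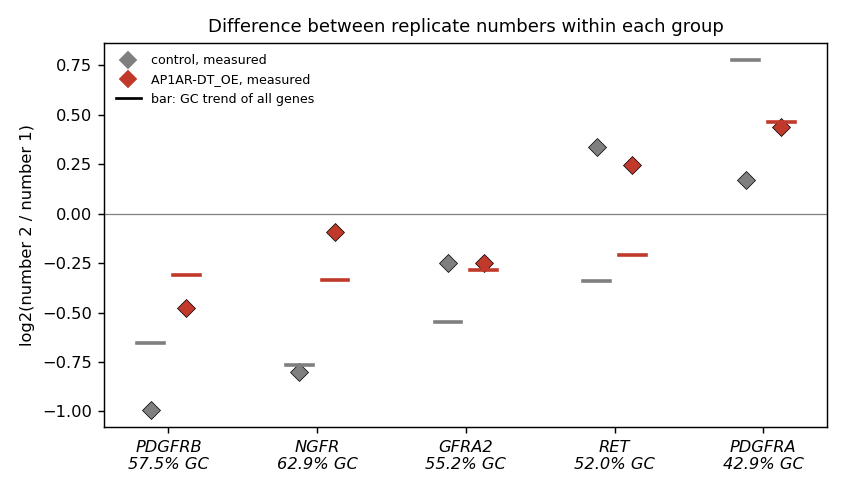
log2 ratio of library number 2 over number 1 (vertical axis) within the controls (grey diamonds) and AP1AR-DT_OE (red diamonds) for the 5 receptors with a mean of at least 50 normalized counts; horizontal bars are the smoothed trend of all genes at the receptor's GC content. RET lies above 0 in both groups where its bars lie below 0, and PDGFRB lies below its bars.

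The ligands of these receptors were read next, to see which pairs of ligand and receptor were transcribed in the same culture. Of 16 ligand genes listed, 14 had a row, 13 passed the floor in at least 1 library, and 0 were called, with a median Log2FC of 0.05 against −0.03 over all genes. NTF3 and ALKAL1 were not analysed here, and ALKAL2, a ligand of ALK, was at or under the floor in each library. MDK, the growth factor midkine, had the most counts of the 13, at 13930 and 9673 normalized counts in the controls, against 12740 and 12110 in AP1AR-DT_OE. PTN, the related pleiotrophin, was at 194 and 762 in the controls, against 222 and 593 in AP1AR-DT_OE. Both PTN values of number 2 exceeded both of number 1.

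Among the neurotrophins, BDNF, the ligand of TRKB, was at 240 and 538 in the controls, against 265 and 526 in AP1AR-DT_OE. Its level followed the number and not the group, with log2 ratios of number 2 over number 1 of 1.16 and 0.99 where the GC trend was 1.03 and 0.66. NTF4 was at 40.7 to 71.3 normalized counts. BDNF was thus measured in libraries where the transcript of its kinase NTRK2 was not detectable and that of NGFR was.

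Of the RET ligands, GDNF was at 753 and 787 normalized counts in the controls, against 630 and 723 in AP1AR-DT_OE, below both controls, with a Log2FC of −0.19 (SE = 0.45). PSPN was at 548 and 289 against 569 and 400, NRTN, the ligand preferred by GFRA2, at 157 and 108 against 197 and 124, and ARTN at 22.8 and 2.31 against 14.3 and 4.96. Of the platelet-derived growth factors, PDGFA was at 1108 to 1543 normalized counts and PDGFC at 641 to 1220. PDGFD was at 72.9 to 191, and PDGFB at 15.4 to 36.5. Of the 11 ligands with a mean of at least 50, GDNF alone had groups that did not overlap, as did 1257 of the 13298 genes at that level.

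**Figure D4:**
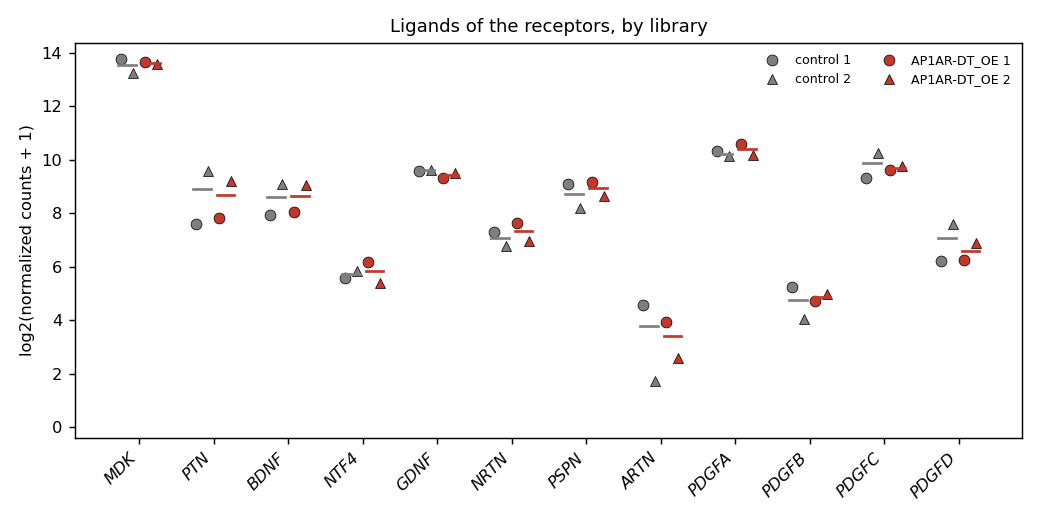
Normalized counts of 12 ligand genes that passed the floor, as log2(value + 1) on the vertical axis, by library (circles, number 1; triangles, number 2; grey, control; red, AP1AR-DT_OE); bars are group means. PTN, BDNF, PDGFC and PDGFD have both triangles above both circles, and MDK, NRTN, PSPN, ARTN and PDGFA have both triangles below both circles. No ligand was called between groups.

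Of 13 further receptors and co-receptors of these families, 9 had a row and 0 were called, with a median Log2FC of −0.18. GFRA1, the co-receptor preferred by GDNF, was at 58.1 and 49.4 normalized counts in the controls, against 27.4 and 19.9 in AP1AR-DT_OE. Both AP1AR-DT_OE libraries lay below both controls, yet the Log2FC of −1.19 (SE = 0.87, DESeq2 adjusted p = 1) had a 95% interval from −2.90 to 0.53. The ratios within numbers were −1.08 and −1.31. SORCS2, a sortilin-family receptor for proneurotrophins, was at 107 and 64.0 in the controls, against 41.7 and 52.6 in AP1AR-DT_OE, with a Log2FC of −0.86 (SE = 0.74). Its relatives were SORT1, at 976 to 1142 normalized counts, and SORCS1, at 178 to 327. NCAM1, a further partner of GFRA1, was at 838 to 1144. CSF1R was at 50.1 and 46.3 against 60.3 and 57.6, LTK at 11.9 to 28.5 and KIT at 6.58 to 23.9.

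Of 38 adaptors and signal transducers, 37 had a row and 0 were called, with a median Log2FC of −0.09. By the rule for named genes, the largest differences were those of PIK3R2, FRS2 and SHC1. FRS2, the docking protein of TRK and RET kinases, was at 99.1 and 179 normalized counts in the controls, against 75.7 and 114 in AP1AR-DT_OE (Log2FC −0.55, SE = 0.65). SHC1, an adaptor that links receptors to GRB2, had 3824 and 35705 counts in the controls, against 38788 and 2479 in AP1AR-DT_OE. The libraries of each group thus differed by a log2 ratio of 2.66 and −4.11, in opposite directions with the number, and the Log2FC of 0.50 had SE = 1.82. SHC1 overlaps PYGO2 on the same strand, whose 10112 to 15567 counts did not move in that way.

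PIK3R2, a regulatory subunit of PI3K, had 1810 and 403 counts in the controls, against 0 and 1129 in AP1AR-DT_OE on the row ENSG00000105647 (Log2FC −1.08, SE = 3.63). Without AP1AR-DT_OE 2 this row was called by DESeq2 (adjusted p = 0.0288), on a fitted value against a library at 0. The table lists the same symbol on a second row, ENSG00000268173, with 12728, 10135, 12413 and 8786 counts in the same order. The sum of both rows was 14538 and 10538 in the controls, against 12413 and 9915 in AP1AR-DT_OE, and the listing at 0 in AP1AR-DT_OE 1 belonged to 1 of the rows. GRB2 was at 7934 and 8097 normalized counts in the controls, against 9076 and 8236 in AP1AR-DT_OE, above both controls, with a Log2FC of 0.11 (SE = 0.42).

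Of 14 negative regulators, 12 had a row and 0 were called, with a median Log2FC of −0.02. The 3 with the largest differences were NEDD4, a ubiquitin ligase (Log2FC −0.43, SE = 0.74), PTPN3, a tyrosine phosphatase (0.25, SE = 0.51), and CBL, a ubiquitin ligase that marks activated receptors for degradation (−0.15, SE = 0.48). NEDD4 was at 70.6 and 185 normalized counts in the controls, against 52.7 and 138 in AP1AR-DT_OE, with the same log2 ratio of number 2 over number 1, 1.39, in both groups.

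Of 16 transcripts that these receptors induce through MAPK, all had a row and 0 were called, with a median Log2FC of −0.08. Of the 14 with a mean of at least 50, 7 were higher in number 2 in both groups, where 41.4% of all genes at that level were. FOS, an immediate-early transcription factor, had 54 and 19720 counts in the controls, against 32 and 8234 in AP1AR-DT_OE. Its log2 ratio of number 2 over number 1 was 7.95 in the controls and 7.86 in AP1AR-DT_OE, rank 2 among the 13298 genes at that level, while the Log2FC between groups was −0.90 (SE = 3.01), with −0.81 and −0.90 within the numbers. EGR1, also an immediate-early gene and named here after its values were seen, had 713 and 25803 counts in the controls, against 709 and 17487 in AP1AR-DT_OE, rank 20 by the same measure. DUSP6, which dephosphorylates ERK and was also named after its values were seen, was higher in number 2 by 1.80 and 0.80. FOSL1, VGF, SPRED2, ETV4 and ETV5 of the same list were lower in number 2 in both groups. The GC trend at FOS was −0.40 and −0.23, opposite in sign to the measured ratios. The labels do not say what the libraries of a number share.

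SPRY1, a feedback inhibitor of receptor tyrosine kinase signalling, was at 220 and 373 normalized counts in the controls, against 150 and 118 in AP1AR-DT_OE, both below both controls. Its Log2FC was −1.14 (SE = 0.56, 95% interval −2.25 to −0.04), with ratios of −0.55 and −1.66 within the numbers. The unadjusted p was 0.0417 and the DESeq2 adjusted p was 1, and over the 24014 genes tested it therefore missed the threshold. It was the only one of the 88 pathway genes with a row at an unadjusted DESeq2 p under 0.05, where 0.816% of all genes were. Its relatives SPRY2 (Log2FC −0.07) and SPRY4 (−0.05) lay near 0, and SPRED1, a related inhibitor of RAS and MAPK signalling, was at 436 and 882 in the controls, against 327 and 609 in AP1AR-DT_OE (Log2FC −0.49, SE = 0.55).

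**Figure D5:**
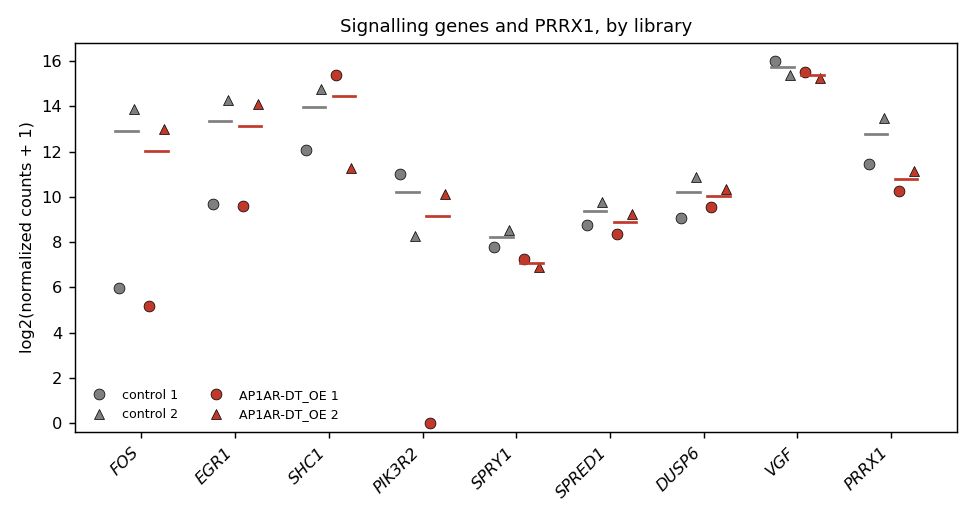
Normalized counts of 8 signalling genes and of PRRX1, as log2(value + 1) on the vertical axis, by library (circles, number 1; triangles, number 2; grey, control; red, AP1AR-DT_OE); bars are group means. FOS and EGR1 separate by number in both groups, SHC1 moves in opposite directions in the groups, and SPRY1 and PRRX1 are below both controls in AP1AR-DT_OE.

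Over the 5 pathway lists together, 88 of 97 genes had a row, 0 were called in either direction and the median Log2FC was −0.06. Of the 77 with a mean of at least 50, 7 had groups that did not overlap, as did 1257 of the 13298 genes at that level. The 7 were GDNF, SORCS2, SPRY1, TRAF6 and NFKB1, which were lower in AP1AR-DT_OE, and GRB2 and CSF1R, which were higher.

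The identity of the cells was read from markers, since PDGF receptors are also expressed by mesenchymal cells and NGFR by glia. Of 11 adrenergic markers 10 had a row, among them HAND2 at 12210 to 15660 normalized counts and PHOX2A at 3792 to 4684, and 0 were called. Of 12 mesenchymal markers 11 had a row, with VIM at 67920 to 93090 and FN1 at 17080 to 31050 normalized counts, and 0 were called. Summed over the mesenchymal list, the level was 163000 and 127200 in the controls, against 157800 and 135900 in AP1AR-DT_OE, and over the adrenergic list 45970 and 34570 against 43240 and 39970. Both sums were lower in number 2, as was the summed level of all genes, while 6 of the 11 mesenchymal markers were higher in number 2 in both groups. PRRX1, a transcription factor of the mesenchymal state, was at 2770 and 11360 normalized counts in the controls, against 1241 and 2246 in AP1AR-DT_OE, a Log2FC of −2.02 (SE = 0.61, unadjusted p = 0.000987, DESeq2 adjusted p = 0.43). The part of the cell states in the receptor levels was not tested.

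Most markers of other cells were low or had no row, with keratins as the exception. Of 7 Schwann cell or glial markers 4 had a row and 0 were called, with S100B at 6.58 to 16.9 normalized counts, ERBB3 at 20.1 to 38.7 and GFAP at 7.94 to 50.1. SOX10 and FOXD3 had no row to analyse here. Of 5 blood cell markers CD68 alone had a row, at 49.4 to 156 normalized counts, and of 4 endothelial markers 2 had a row, summing to 6.95 to 23.1. Of 5 epithelial markers 4 had a row, with KRT8 and KRT18 at 552 or more and EPCAM at 13.9 or less. Of 4 markers of kidney-derived packaging cells EYA1 alone had a row, at 9.87 to 44.7.

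Genes whose pattern over the 4 libraries was closest to each of the 3 receptors with the most counts were found by the root mean square difference of centred log2(normalized count + 1), among 11472 genes with a mean of at least 100. Closest to PDGFRB were CHRNB2 (0.014), KCNAB2 (0.015) and GRK6 (0.017). CHRNB2, a subunit of neuronal nicotinic receptors, was at 583 and 288 normalized counts in the controls, against 555 and 395 in AP1AR-DT_OE. Closest to RET were ADAMTS1 (0.021), AP000357.4 (0.022) and PPAPDC2 (0.024), and ADAMTS1, a secreted metalloprotease, was at 1930 and 2536 against 1696 and 1978. Closest to NGFR were ZNF628 (0.016), NR1D1 (0.025) and C16orf86 (0.025). Within a difference of 0.1 lay 656 genes for PDGFRB, 462 for NGFR and 191 for RET, so with 4 libraries many genes matched each pattern and none is particular to its receptor.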

How the data were processed

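RNA of SK-N-SH cells was sequenced in 4 libraries, and each was assigned to control or AP1AR-DT_OE by its title. Per the paper's methods, the authors aligned reads with HISAT2 to hg19 and derived a read count per gene with StringTie and its Python script; the submitters' processing notes instead list TopHat2 2.0.4, SAMtools, HTSeq, Cuffdiff and edgeR 2.6.12. The deposited counts are whole numbers without normalization, and the use of strand is not given in the sources used here. Low values piled up at 4 (3287 entries, against 2136 at 3 and 1509 at 5), which gave about 4 counts per read pair. The table also holds the authors' fold changes, means and p-values from DESeq2 and edgeR, which were not used. Its gene coordinates are GRCh38.

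Counts were tested with DESeq2 1.42.0 in R 4.3.3 (Wald test, two-sided, no covariate, default independent filtering) over all 24014 genes with Benjamini-Hochberg adjustment and a threshold of 0.05. The median-of-ratios size factors were 0.88 to 1.30. Normalized counts are counts divided by these. Lengths, GC content and exon overlap came from GENCODE v44 mapped to GRCh37, matched for 23954 genes. The GC trend was a lowess (span 0.3) per library. Within each group, neither library was a copy of the other: the controls differed with a chi-square of 155 per degree of freedom, and the AP1AR-DT_OE libraries with 69.0. Libraries of different groups were not compared in this way. The floor covers counting error only, since PCR copies are not independent molecules. The tests were tried on simulated data.

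The named genes were the 9 receptors, AP1AR-DT, each listed ligand and co-receptor over 12 counts in a library, the 3 genes of each other pathway list with the largest Log2FC at a mean of at least 50, and the 3 nearest patterns. Some genes that the rule names are not reported here. The members and lists were chosen with earlier results of these data known. Results were recomputed with the quasi-likelihood test of edgeR 4.0.16, TMM factors, a filter of 10 counts in 2 libraries, no independent filtering, the replicate number as a block, a GC correction, counts divided by 4, the longest transcript as length, each library left out, and, chosen after seeing the data, library totals as size factors.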

Additional observations from a re-analysis of the deposited data

How the results depend on the processing

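No receptor was called under any alternative. RET, GFRA2 and PDGFRA kept a negative Log2FC in all alternatives, with −0.44 to −0.09, −0.65 to −0.38 and −0.60 to −0.15 when a library was left out. Over all alternatives that kept every library, the other receptors run kept their sign too, but the replicate block moved GFRA3 from −0.80 to −2.41 (−2.49 with GC correction, −1.55 in edgeR) and NTRK3 from −0.08 to −0.36. Leaving out libraries gave −0.111 to 0.0914 for ALK (positive without control 2 or AP1AR-DT_OE 2), −1.40 to 0.58 for NTRK3 (positive without AP1AR-DT_OE 1), −0.45 to 0.34 for NGFR (positive without control 1), −6.29 to 0.20 for GFRA3 (positive without AP1AR-DT_OE 2) and −0.25 to 0.73 for PDGFRB (negative without control 2 or AP1AR-DT_OE 1). NTRK2, at or under the floor, was given no fold under any setting.

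The count of genes called over the table was 33, and it was 0 with the edgeR quasi-likelihood test, 55 with the GC correction, 59 with the GC correction and replicate block, 15 with counts divided by 4, and 45 to 90 with a library left out (90 without control 1, 75 with control 2 left out, 50 on leaving out AP1AR-DT_OE 2). The replicate number as a block gave 37 genes, or 44 in edgeR; deviations of same-numbered libraries correlated at 0.49 over 13298 genes, but only 2 pairs exist and the labels do not say what a number shares. With the block, RET had a Log2FC of −0.28 and PDGFRB 0.21, neither called. Among the lists, the calls moved from 0 to 1 for the receptor-induced transcripts with GC correction and replicate block (FOS, Log2FC −0.96), and between 0 and 1 for the adaptors with a library left out (PIK3R2, without AP1AR-DT_OE replicate 2). The cause was not tested.

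With the longest transcript as length, the level per kilobase was 4.44 for ALK, 186 for RET, 0.44 for NTRK2 and 23.0 for PDGFRA, which placed PDGFRA above GFRA2 at 20.6. With 2 libraries a group and about 4 counts per read pair, the narrowest 95% interval of a receptor, that of RET, still ran from −1.16 to 0.60.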
